A study of Mus musculus with 4 samples.

Results

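The collagens are the fibre-forming and sheet-forming proteins of the extracellular matrix, and the expression of their genes in lamina propria lymphocytes of mice with colitis is described here. Members were all non-control probes of the arrays whose RefSeq accession belongs to a gene with a symbol of the form Col, number, a, number, such as Col1a1. This gave 63 probes of 43 genes, out of 39429 probes and 20659 named genes on the array. The 43 genes comprised 11 fibrillar collagens, 9 basement membrane collagens and 23 minor collagens. The minor collagens were 6 beaded filament, 8 fibril-associated, 3 short-chain network, 4 transmembrane and 2 other chains. Of the 43 genes 29 had 1 probe and 14 had several. Col12a1, the remaining collagen gene of the naming table, was not analysed here.

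Total RNA of lamina propria lymphocytes, immune cells from the loose tissue beneath the gut lining, was put on 4 Agilent arrays with a single dye (Cy3). All mice were C57BL6 and all had received dextran sulfate sodium (DSS), a chemical that injures the colon lining. Cells were taken on day 10. The groups were Stat4-/- given DSS plus LIF, Stat4-/- given DSS, wild type given DSS plus LIF, and wild type given DSS. LIF is leukemia inhibitory factor, a secreted signalling protein. Each group had 1 array and 5 mice, and the labels do not say whether their RNA was pooled. Mice without DSS were not analysed here, so every value below comes from DSS-treated animals. The sources used here do not say how the Stat4 allele was made, nor the age of the mice.

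Collagen chains wind around each other into long helices, which the cell modifies, secretes, trims and cross-links. Fibrillar collagens such as types I and III form the load-bearing fibrils of the gut wall and are made mainly by fibroblasts and smooth muscle cells. Type IV collagen forms the sheet-like network under epithelia and around vessels, and the minor collagens decorate fibrils, form fine filaments or span the plasma membrane. Lymphocytes themselves are not known as a main source of these chains. In RNA from a cell isolate, fewer cells of a type and less RNA per cell cannot be told apart.

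Levels are given as the log2 of the processed signal, which is the spot brightness after background subtraction, minus the 75th percentile of the same array. They can be compared between arrays for a probe but not between probes. That percentile was 43.3 on the array labelled Stat4-/- with DSS and LIF, 45.3 on the array labelled Stat4-/- with DSS, 23.8 on the wild-type array with both agents and 123 on the wild-type array with DSS. A gene was called measured on an array when its probe carried the scanner software's mark for a signal well above background. The dimmest level with that mark was between −3.79 on the wild-type DSS array and −1.49 on the wild-type LIF array, so dim genes were more readily measured on the array of wild type with DSS. A gene whose level there lay below another array's dimmest mark could be measured on both only if higher on that other array. The wild-type DSS and LIF array correlated at 0.800 to 0.818 with the others over probes measured on all 4 arrays, and the others at 0.951 to 0.980 with each other. The Stat4 probe did not separate the genotypes, with levels of −0.48 and 0.31 in the arrays labelled Stat4-/- and 0.21 and −0.49 in the wild-type arrays. Whether it lies in the deleted part is not stated in the labels, and otherwise it is no check of genotype, so directions between genotypes rest on the labels. With 1 array per group there is no replicate and no p-value. The ± values below are the scanner software's own error for the spots, which covers error within an array only.

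Most collagen genes were below the background mark. Of 43 genes 12 (27.9%) were well above background in labelled Stat4-/- with DSS and LIF, 12 (27.9%) in labelled Stat4-/- with DSS, 8 (18.6%) in wild type with both agents and 18 (41.9%) in wild type with DSS. Over all named genes the shares were 52.6%, 51.9%, 45.4% and 68.1% on the same arrays. Every array thus had a lower share among collagens than among all genes. On each of the 4 arrays the share was lowest for the minor collagens. Of 23 minor collagens 3, 3, 2 and 8 were well above background, in the same order of arrays. Of 11 fibrillar collagens 4, 4, 3 and 4 were, and of 9 basement membrane collagens 5, 5, 3 and 6. The 25 genes below the mark on all 4 arrays had only an upper limit.

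**Figure D1:**
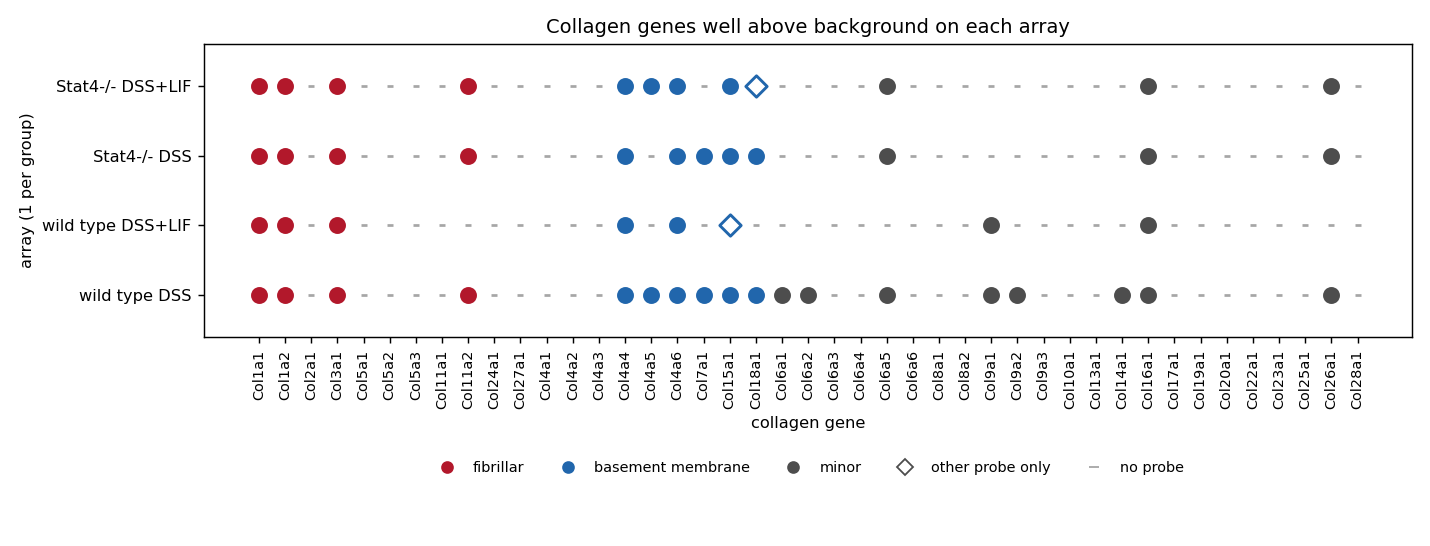
Detection of the 43 collagen genes (columns) on the 4 arrays (rows). A filled circle marks a gene whose brightest probe was well above background, an open diamond a gene for which this held for another probe alone, and a dash a gene with no such probe. Col1a1, Col1a2, Col3a1, Col4a4, Col4a6 and Col16a1 have filled circles on all 4 arrays.

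**Figure D2:**
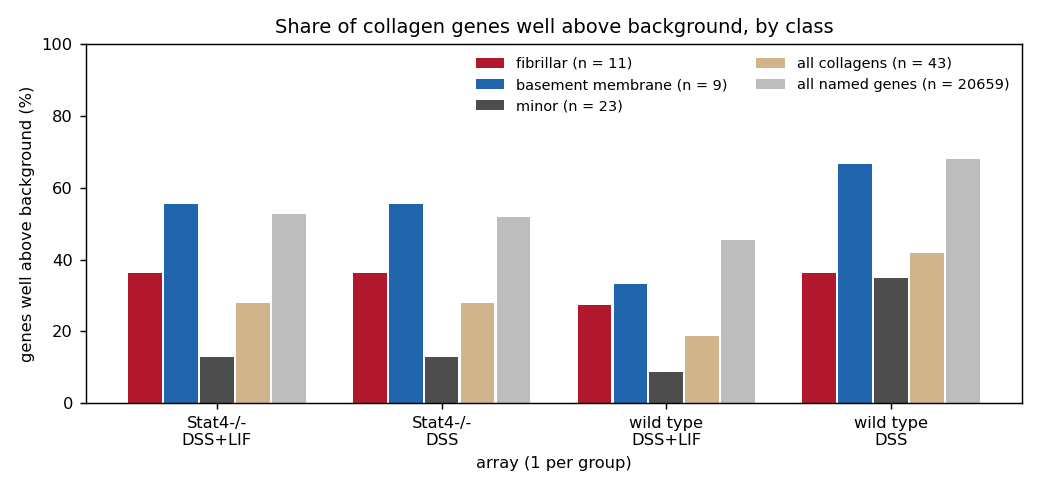
Percent of genes well above background on each array (bars, y axis from 0 to 100%), for the collagen classes, all collagens and all named genes. The bar of all collagens is shorter than that of all named genes on each array, and the minor collagens have the shortest bar.

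Among the fibrillar collagens, 3 genes were measured on all 4 arrays, and they encode the chains of the main gut fibrils. Col1a1 encodes the major chain of type I collagen. Its processed signal was 71.9 in labelled Stat4-/- with DSS and LIF, 83.8 in labelled Stat4-/- with DSS, 28.1 in wild type with both agents and 42.1 in wild type with DSS. The corresponding levels were 0.73, 0.89, 0.24 and −1.54. Both labelled Stat4-/- arrays lay above both wild-type arrays, and wild type with DSS stood far below the other 3 arrays.

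Col1a2 encodes the other chain of type I collagen, which assembles with the Col1a1 product. Its processed signal was 36.7 in labelled Stat4-/- with DSS and LIF, 58.5 in labelled Stat4-/- with DSS, 9.03 in wild type with both agents and 84.7 in wild type with DSS. The levels were −0.24, 0.37, −1.40 and −0.54, so after scaling both labelled Stat4-/- arrays were above both wild-type arrays, whereas the unscaled signal was highest in wild type with DSS. The lowest of the 4 levels was in wild type with DSS and LIF for Col1a2 and in wild type with DSS for Col1a1, so the chains of type I collagen did not share an order.

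Col3a1 encodes the chain of type III collagen, which forms fine fibrils together with type I. Its processed signal was 138 in labelled Stat4-/- with DSS and LIF, 250 in labelled Stat4-/- with DSS, 21.6 in wild type with both agents and 154 in wild type with DSS. The levels were 1.67, 2.47, −0.14 and 0.33. Col3a1 and Col1a2 shared the order of the arrays, with labelled Stat4-/- with DSS highest and wild type with DSS and LIF lowest.

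Col11a2 encodes a chain of type XI collagen, best known from cartilage. Its levels were −1.12 and −1.18 in the labelled Stat4-/- arrays with and without LIF, and −2.51 in wild type with DSS. On the wild-type LIF array it was not well above background. The other fibrillar genes, Col2a1, Col5a1, Col5a2, Col5a3, Col11a1, Col24a1 and Col27a1, were not well above background on any array. Col5a1 and Col5a2 encode type V chains that start type I fibrils in mice.

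**Figure D3:**
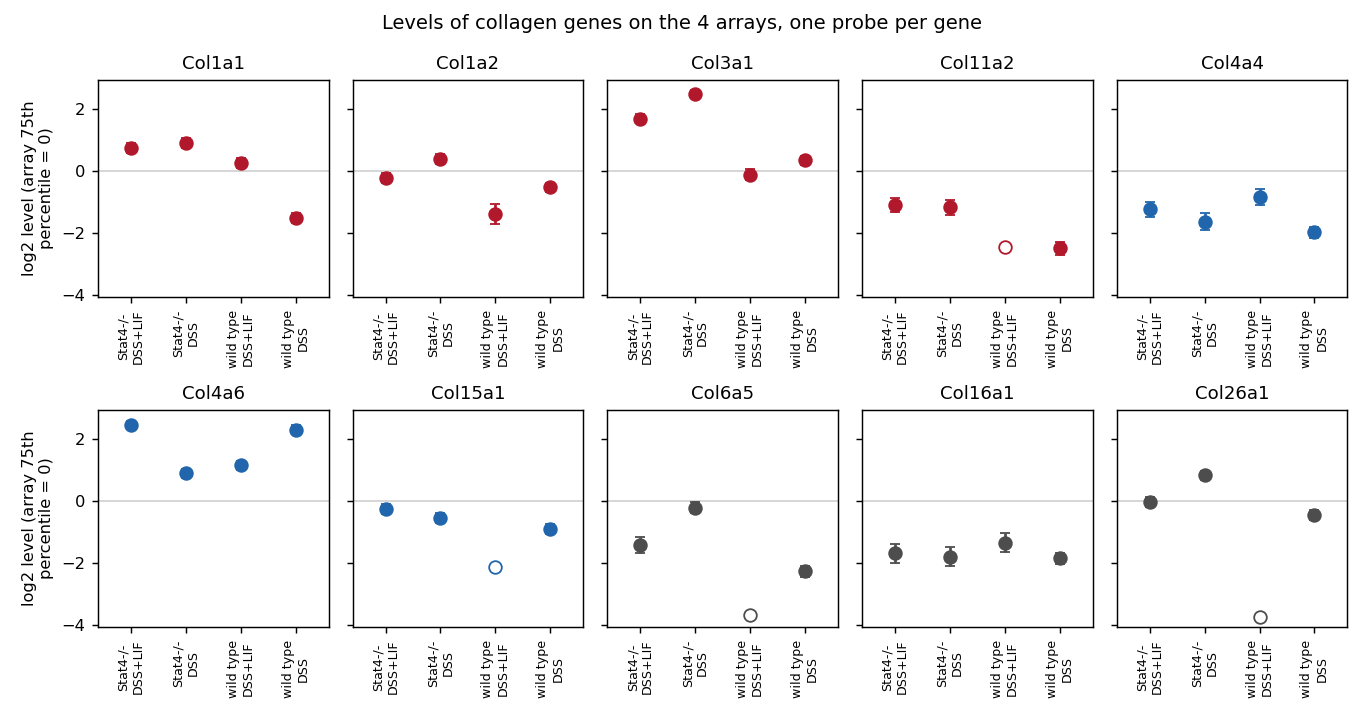
Levels (log2 processed signal, 75th percentile of the array at 0) of the 10 collagen genes whose brightest probe was well above background on at least 3 arrays. Each point is 1 array, bars are the scanner software's error, and open points were not well above background. Col1a1, Col1a2 and Col3a1 lie higher in both labelled Stat4-/- arrays, and Col4a6 is high in labelled Stat4-/- with DSS and LIF and in wild type with DSS.

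The promoters of Col1a2 and Col3a1, which shared their order over the arrays, are shown with that of Col4a6, which had another order. Each is the 250 bases before the gene's start, 5′ to 3′ in the direction of the gene, from RefSeq (GRCm38.p6). Capitals mark matches on either strand to TATAAA (the TATA box), CCAAT (the CCAAT box) or GGGCGG (the GC box), and no matches overlapped.
Col1a2, chr6:4505368-4505617, plus strand: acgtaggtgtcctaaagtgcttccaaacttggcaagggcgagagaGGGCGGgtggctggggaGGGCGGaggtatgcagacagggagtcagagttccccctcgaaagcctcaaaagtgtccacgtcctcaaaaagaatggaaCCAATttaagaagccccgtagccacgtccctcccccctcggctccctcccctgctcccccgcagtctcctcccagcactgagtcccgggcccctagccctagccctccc
Col3a1, chr1:45311288-45311537, plus strand: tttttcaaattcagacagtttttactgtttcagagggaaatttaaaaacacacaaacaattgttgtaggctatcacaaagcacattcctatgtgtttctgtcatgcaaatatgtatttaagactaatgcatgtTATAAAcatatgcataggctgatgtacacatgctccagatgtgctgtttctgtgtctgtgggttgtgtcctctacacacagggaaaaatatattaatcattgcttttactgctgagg
Col4a6, chrX:141474077-141474326, minus strand: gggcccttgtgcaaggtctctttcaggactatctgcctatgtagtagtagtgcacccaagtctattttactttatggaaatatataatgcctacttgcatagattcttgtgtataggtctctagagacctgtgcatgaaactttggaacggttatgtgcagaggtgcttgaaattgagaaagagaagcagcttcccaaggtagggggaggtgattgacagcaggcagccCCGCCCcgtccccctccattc

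These windows differed in their letters. The Col1a2 window held 2 GC boxes, beginning 205 and 188 bases before the start, and a CCAAT box at 109 bases, with 62.0% G and C. The Col3a1 window held a TATA box at 117 bases and neither other motif, with 35.2% G and C. The Col4a6 window held a GC box at 21 bases, with 47.6% G and C, and the median over all windows was 52.4%. Among all 32851 upstream windows, 12.4% held a TATA box, 33.8% a CCAAT box and 32.7% a GC box. Of the 35 collagen genes with a window, 5 held a TATA box, 13 a CCAAT box and 21 (60.0%) a GC box. A gene counted if any of its windows held the motif, whereas the shares over all windows count single windows. The counts and those shares are therefore not directly comparable. A TATA box was in 2 of 8 fibrillar, 0 of 8 basement membrane and 3 of 19 minor collagen genes. A match describes the letters of the window and shows no binding.

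Basement membrane collagens were measured unevenly. Col4a1 and Col4a2, which encode the chains of the common type IV network found under most epithelia and around vessels, were not well above background on any array. Col4a3, a chain of the kidney and lung network, was also below the mark on all 4 arrays. Col4a4, its partner chain, was measured on all 4 arrays by 1 of its 3 probes, with levels of −1.25 in labelled Stat4-/- with DSS and LIF, −1.65 in labelled Stat4-/- with DSS, −0.84 in wild type with both agents and −1.99 in wild type with DSS. After scaling both arrays with LIF were higher than both arrays without it, whereas the unscaled signal was highest in wild type with DSS, at 31.0. The LIF difference in labelled Stat4-/- was 0.40 ± 0.38. In wild type its direction was fixed by the filter, since −1.99 was below −1.49, the dimmest level marked with both agents. The other 2 Col4a4 probes were below the mark on every array.

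Col4a6 encodes a type IV chain known from smooth muscle and some epithelial basement membranes. Its processed signal was 235 in labelled Stat4-/- with DSS and LIF, 83.8 in labelled Stat4-/- with DSS, 52.2 in wild type with both agents and 600 in wild type with DSS. The levels were 2.44, 0.89, 1.14 and 2.29. The gene was high in labelled Stat4-/- with DSS and LIF and in wild type with DSS, and lower on the remaining pair of arrays. Its second probe was below the mark on all 4 arrays, so these values rest on 1 of 2 probes. Col4a5, which assembles with the Col4a6 product, was well above background on those same arrays only, with levels of −0.59 in labelled Stat4-/- with DSS and LIF and −0.50 in wild type with DSS.

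Outside type IV, the remaining basement membrane zone collagens were measured on some arrays only. Col15a1, a chain found around vessels and muscle, had levels of −0.26 and −0.56 in the labelled Stat4-/- arrays with and without LIF and −0.91 in wild type with DSS. On the wild-type LIF array that probe was below the mark while another Col15a1 probe was above it. Col18a1, whose C-terminal fragment is endostatin, had a level of −1.43 in labelled Stat4-/- with DSS and −2.97 in wild type with DSS, and another probe alone was above the mark in labelled Stat4-/- with DSS and LIF. Col7a1, the anchoring fibril collagen, had −1.51 in labelled Stat4-/- with DSS and −2.25 in wild type with DSS and was below the mark on both arrays with LIF.

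Of the minor collagens, Col16a1 alone was measured on all 4 arrays. It encodes a fibril-associated chain, and its levels were −1.69 in labelled Stat4-/- with DSS and LIF, −1.80 in labelled Stat4-/- with DSS, −1.35 in wild type with both agents and −1.86 in wild type with DSS. These differed by little more than the software's error for a difference, which was 0.35 to 0.44. The other 2 Col16a1 probes were below the mark on every array. Col26a1 had levels of −0.04 in labelled Stat4-/- with DSS and LIF, 0.82 in labelled Stat4-/- with DSS and −0.46 in wild type with DSS. Col6a5, a beaded filament chain, had −1.42, −0.22 and −2.28 on the same arrays. Neither was well above background in wild type with DSS and LIF. Both were highest in labelled Stat4-/- with DSS.

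The remaining minor collagens were seen on wild-type arrays at most. Col6a1 and Col6a2, which encode the core chains of type VI filaments, and Col9a2 and Col14a1, which are fibril-associated, were well above background in wild type with DSS alone, at levels from −2.91 to −1.79. Col9a1, another type IX chain, was measured in wild type with DSS and LIF at −1.29 and in wild type with DSS at −3.03. Below the mark on every array were Col6a3, Col6a4, Col6a6, Col8a1, Col8a2, Col9a3, Col10a1, Col13a1, Col17a1, Col19a1, Col20a1, Col22a1, Col23a1, Col25a1 and Col28a1. All 4 transmembrane and all 3 short-chain network collagens were among these 15 genes. Col17a1 is the hemidesmosome collagen of stratified epithelia, and Col10a1 marks hypertrophic cartilage.

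Many collagen genes lie next to another collagen gene, and the naming table held 8 such neighbouring pairs. Neighbours were often not measured together. Col3a1 was measured on 4 arrays and its neighbour Col5a2 on 0. Col4a4 was measured on 4 and its neighbour Col4a3 on 0. Col4a6 was measured on 4 and Col4a5, which lies beside it on chromosome X and is read in the opposite direction, on 2. Col4a1 and Col4a2, another divergent pair on chromosome 8, were measured on 0 each, and Col6a2 and Col6a1 on 1 each, wild type with DSS for both. The probes differ in brightness for reasons that were not tested, so these counts describe detection and not relative amounts.

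The comparison of labelled Stat4-/- with wild type under DSS asks which collagen genes differ with genotype in inflamed tissue without LIF. Of 11 fibrillar collagens 4 were measured, and 3 of them were at least 2-fold higher in labelled Stat4-/-. Col1a1 was 5.40-fold higher (log2 difference 2.43 ± 0.22), Col3a1 4.41-fold (2.14 ± 0.21), and Col11a2 2.51-fold (1.33 ± 0.33). Col1a2 was 1.88-fold higher (0.91 ± 0.21), short of 2-fold. Among the minor collagens Col6a5 was 4.17-fold and Col26a1 2.43-fold higher, and Col16a1 had a log2 difference of 0.07 ± 0.35. The basement membrane collagens split. Col18a1 was 2.91-fold higher and Col4a6 2.64-fold lower, while Col7a1, Col15a1 and Col4a4 had log2 differences of 0.74, 0.35 and 0.34. Col4a5, seen in wild type only, was at least 3.09-fold lower.

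Of the 12 collagen genes measured on both arrays 6 were at least 2-fold higher, where 13.2% of 10529 measured genes were, and 1 was at least 2-fold lower, where 6.94% were. The difference was above 0 in 11 of the 12, against 54.3% of all measured genes. Col6a5, Col7a1, Col11a2 and Col18a1 had wild-type levels from −2.97 to −2.25. These were below −2.13, the dimmest level marked in labelled Stat4-/- with DSS, so only a higher value there could be measured. Their direction was fixed by the filter, and the counts and medians of this comparison carry that limit. The median log2 difference was 1.09 for collagens and 0.07 for all genes. By class the medians were 1.73 over 4 fibrillar, 0.35 over 5 basement membrane and 1.28 over 3 minor collagens. Another 6 collagens were well above background in wild type with DSS alone and 0 in labelled Stat4-/- with DSS alone, where 16.9% and 0.736% of all named genes were. With the 3 of these that had a bound the median was 0.74. These 2 arrays were read in the same scan. With normexp background correction (offset 50) 2 collagens in place of 6 were at least 2-fold higher, with log2 differences of 1.28 for Col1a1 and 1.25 for Col3a1, and 3.12% of all measured genes were higher and 7.78% lower.

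**Figure D4:**
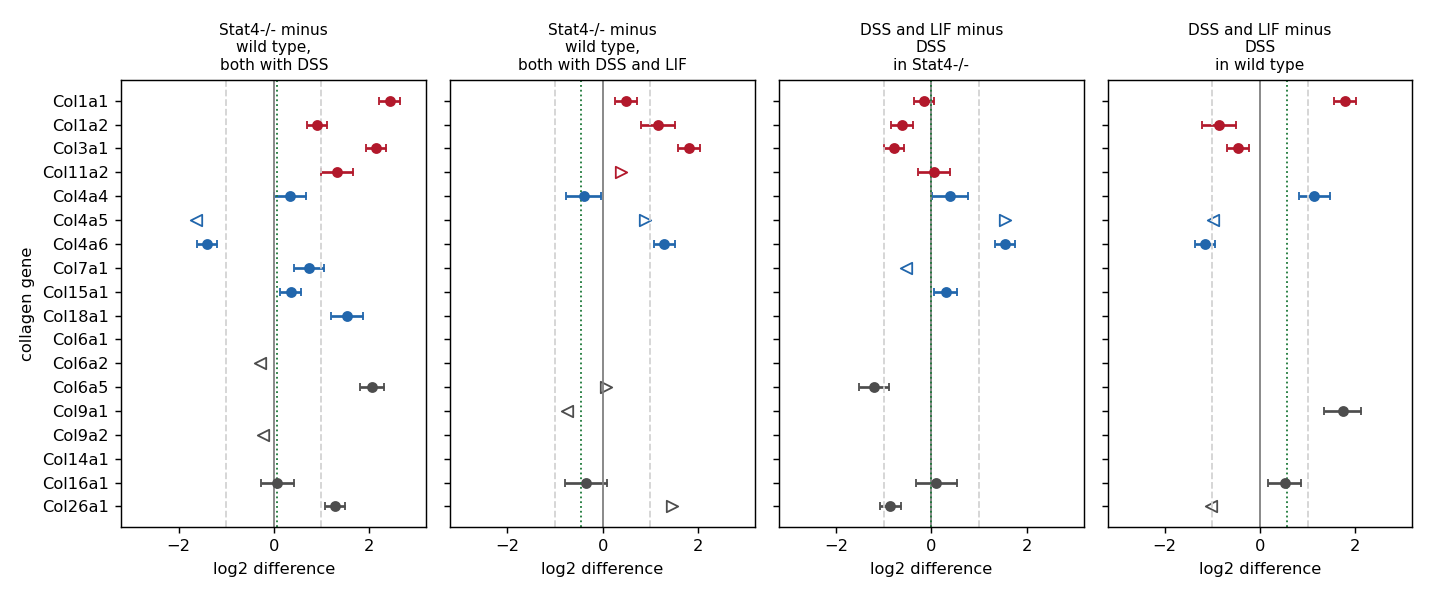
Log2 differences of the collagen genes seen on at least 1 array, in the 4 comparisons. Filled points are genes measured on both arrays with the software's error as bars, open triangles are bounds pointing away from 0, dashed lines mark a 2-fold difference, and the dotted line is the median of all measured genes. Under DSS all 4 fibrillar points lie right of 0, and Col4a6 has opposite sides with and without LIF in both kinds of comparison.

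Under DSS and LIF, the same question of genotype used the wild-type LIF array, which stood apart and had its own scan. Col3a1 was 3.51-fold higher in labelled Stat4-/- (log2 difference 1.81 ± 0.23) and Col1a2 2.23-fold higher (1.16 ± 0.36). Col1a1 had a log2 difference of 0.49 ± 0.23. Col4a6 was 2.47-fold higher, the other direction from DSS alone, and Col26a1, seen in labelled Stat4-/- only, was at least 2.73-fold higher. Col4a4 and Col16a1 had differences of −0.40 ± 0.36 and −0.35 ± 0.44.

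Of 6 collagen genes measured on both arrays 3 passed 2-fold upward and 0 downward, against 14.2% and 31.3% of 8348 measured genes. The difference was above 0 in 4 of the 6, against 34.8% of all measured genes. Col16a1, at −1.69 in labelled Stat4-/- with DSS and LIF, was below −1.49, the dimmest level marked in wild type with both agents. Its direction was therefore fixed by the filter. The median was 0.82 for collagens and −0.45 for all genes. The median of all genes was −0.31 when arrays were scaled to the median of probes measured on all 4 arrays. Well above background in labelled Stat4-/- alone were 5 collagens and in wild type alone 1, Col9a1, where 11.6% and 4.32% of all named genes were. With normexp (offset 50) 0 collagens were at least 2-fold higher, against 5.23% of all measured genes, and the difference of Col3a1 was 0.58.

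LIF in labelled Stat4-/- mice asks what the cytokine changed where Stat4 is labelled absent. Its arrays came from different scans. Of the 4 measured fibrillar genes 0 passed 2-fold in either direction. Col3a1 was 1.73-fold lower (log2 difference −0.79 ± 0.21) and Col1a2 1.53-fold lower (−0.61 ± 0.23), and Col1a1 had −0.16 ± 0.21 and Col11a2 0.06 ± 0.33. Col6a5 was 2.29-fold lower and Col26a1 1.82-fold lower with LIF. The type IV genes were on the other side, with Col4a6 2.93-fold higher and Col4a5, seen with LIF only, at least 2.91-fold higher. Of 10 measured collagens 1 was at least 2-fold higher and 1 lower, against 3.22% and 3.07% of 9781 genes, and the median was −0.05 for collagens and −0.01 for all genes. The difference was above 0 in 5 of the 10, against 49.0% of all measured genes. Well above background with LIF alone was 1 collagen, and without it alone 1, where 5.01% and 4.30% of all named genes were. With normexp (offset 50) the difference of Col4a6 was 0.53 and that of Col6a5 −0.14, so neither was 2-fold, while Col3a1 at −1.04 passed 2-fold downward.

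LIF in wild type mice gave differences in both directions, again between scans and with the array that stood apart. Col1a1 was 3.44-fold higher with LIF (log2 difference 1.78 ± 0.23), Col9a1 3.35-fold higher and Col4a4 2.21-fold higher. Col4a6 was 2.22-fold lower (−1.15 ± 0.21). Col1a2 and Col3a1 had differences of −0.86 ± 0.35 and −0.46 ± 0.23, on the opposite side of 0 from Col1a1, and Col16a1 had 0.52 ± 0.35. All measured genes had a median of 0.57 (0.43 under the alternative scaling), so Col1a2 and Col3a1 were further below the middle of the array than their signs alone show. Of 7 measured collagens 3 were at least 2-fold higher and 1 lower, against 34.4% and 13.7% of 8983 genes, with a median of 0.52. The difference was above 0 in 4 of the 7, against 68.3% of all measured genes. These 4, Col1a1, Col4a4, Col9a1 and Col16a1, had levels from −3.03 to −1.54 in wild type with DSS. All were below −1.49, the dimmest level marked in wild type with DSS and LIF, so only a higher value with LIF could be measured. The filter thus fixed the direction of all 4. In wild type with DSS alone 10 collagens were well above background, and with LIF alone 0, where 24.0% and 1.30% of all named genes were. With normexp (offset 50) 0 collagens were at least 2-fold higher, against 8.85% of all measured genes, and the difference of Col1a1 was 0.85 and that of Col1a2 0.00.

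The genes that make and bind collagen were grouped by function. Some members with small differences or none measured were named after their values were seen. For chain modification and folding, 11 of 18 genes were measured in the DSS comparison of genotypes, of which 2 were at least 2-fold higher and 0 lower in labelled Stat4-/-, against 13.2% and 6.94% of all measured genes, with a median of 0.27. That is near the share of all genes. Serpinh1, the collagen chaperone HSP47, had levels of 1.51 and 2.45 in the labelled Stat4-/- arrays with and without LIF, and 0.23 and 1.06 in the wild-type arrays with and without LIF. It was 2.63-fold higher in labelled Stat4-/- under DSS and 2.42-fold higher under DSS and LIF. Crtap, a subunit of the prolyl 3-hydroxylase complex, was 2.32-fold higher under DSS and 2.20-fold lower under DSS and LIF. P4hb, a subunit of prolyl 4-hydroxylase, had log2 differences of −0.19 under DSS and 1.20 under DSS and LIF. P4ha1, Plod2, P3h2, P3h3 and Colgalt2 were not well above background on any array.

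For procollagen cleavage and cross-linking, 4 of 13 genes were measured under DSS, with 2 at least 2-fold higher and 0 lower (13.2% and 6.94% of all measured genes) and a median of 1.14. The lysyl oxidase family gene Loxl1 was 4.54-fold and the protease gene Tll1 2.98-fold higher in labelled Stat4-/-, and neither was well above background on the arrays with LIF. Their levels in wild type with DSS were −2.80 and −3.11. Both were below the dimmest level marked in labelled Stat4-/- with DSS, −2.13, so the filter fixed their direction. Bmp1, the main procollagen C-proteinase, had log2 differences of −0.96 under DSS and 1.32 under DSS and LIF. Lox itself was well above background in wild type with DSS only.

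Among fibril-bound proteoglycans and matrix partners 5 of 9 genes were measured under DSS, with 2 at least 2-fold higher and 0 lower (13.2% and 6.94% of all measured genes) and a median of 0.70. That median was the value of Tnxb, whose level in wild type with DSS was −2.43. The dimmest level marked in labelled Stat4-/- with DSS was −2.13, so the filter fixed the direction of Tnxb. Dcn encodes decorin, which coats type I fibrils, and had levels of 1.09 and 2.02 in the labelled Stat4-/- arrays with and without LIF, against −0.72 and −0.40 in the wild-type arrays with and without LIF. It was 5.36-fold higher under DSS and 3.51-fold higher under DSS and LIF, and its levels had the same order over the 4 arrays as those of Col3a1. Fn1, the fibronectin gene, was 3.35-fold higher under DSS, and its difference under DSS and LIF was −0.03. Lum, which encodes lumican, another fibril-bound proteoglycan, had log2 differences of −0.32 and −0.59. Sparc, which encodes the collagen-binding protein osteonectin, had levels of 3.84 and 3.64 in the labelled Stat4-/- arrays with and without LIF, and 0.30 and 3.72 in the wild-type arrays with and without LIF. It was 11.6-fold higher in labelled Stat4-/- under DSS and LIF and had a log2 difference of −0.08 under DSS. The wild-type LIF array alone was low.

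Basement membrane partners had 9 of 14 genes measured under DSS, with 1 passing 2-fold upward, against 13.2% of all measured genes, and a median of 0.29. The laminin gene Lama3 was 2.06-fold higher in labelled Stat4-/- under DSS and 3.49-fold higher under DSS and LIF. Collagen receptors had 4 of 9 genes measured under DSS, with 1 at least 2-fold higher and 1 lower, against 13.2% and 6.94% of all measured genes. Itga1, which pairs with Itgb1 as a collagen-binding integrin of T cells and stromal cells, was 2.88-fold higher in labelled Stat4-/- under DSS and 15.3-fold higher under DSS and LIF. Itgb1 was 2.07-fold lower under DSS and, seen in labelled Stat4-/- only, at least 1.87-fold higher under DSS and LIF. Ddr1, another collagen receptor kinase, had a log2 difference of 0.13 under DSS and was 2.12-fold lower under DSS and LIF. Ddr2, a receptor kinase for fibrillar collagen, was below the mark on every array.

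**Figure D5:**
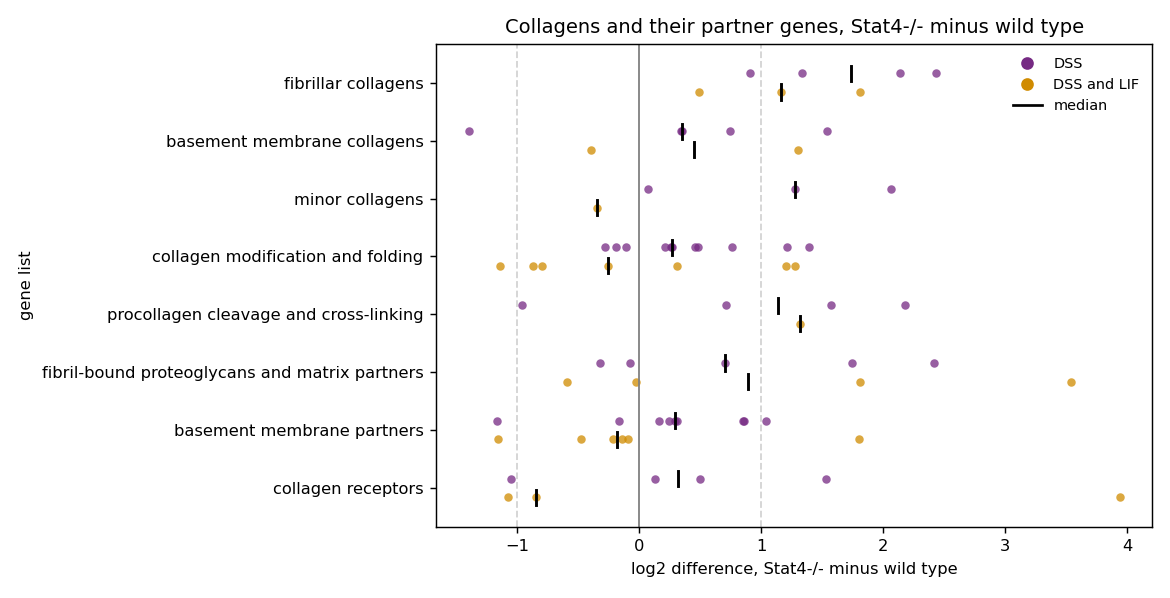
Log2 differences (x axis) of labelled Stat4-/- minus wild type for each measured gene of the collagen classes and of 5 partner lists, under DSS and under DSS and LIF. Each point is 1 gene and black ticks are list medians. Under DSS the fibrillar collagens have the rightmost median, 1.73, and that of cleavage and cross-linking genes is 1.14.

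Markers of other cell types also differed between the genotypes. Of 4 fibroblast markers other than the collagens, Dcn and Lum, the defining genes Pdgfra and Dpt were below background on every array, and 2, 2, 1 and 2 markers were well above it on the labelled Stat4-/- arrays with and without LIF and on the wild-type arrays with and without LIF. Their summed signal over the 75th percentile was 3.19, 3.75, 7.66 and 3.58 in that order, and on the wild-type LIF array nearly all of it came from Thy1, which T cells also express. Pdpn was 3.64-fold higher in labelled Stat4-/- under DSS and, seen in labelled Stat4-/- only, at least 1.41-fold higher under DSS and LIF. Its level in wild type with DSS was −3.40, below −2.13, the dimmest level marked in labelled Stat4-/- with DSS. The filter thus fixed the direction of Pdpn under DSS. Thy1 had a log2 difference of −0.10 under DSS and was 3.04-fold lower under DSS and LIF.

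Of 8 smooth muscle and pericyte markers 4, 4, 3 and 6 were well above background on the same arrays, with summed signals of 5.52, 13.5, 22.4 and 3.83, and on the wild-type LIF array nearly all of the sum came from Tagln. Tagln was 4.40-fold higher in labelled Stat4-/- under DSS and 5.43-fold lower under DSS and LIF. Pdgfrb was 3.81-fold higher under DSS, with a log2 difference of 0.36 under DSS and LIF. Acta2 had differences of 0.20 and −0.19, and Des was below background on every array. Under DSS 2 of 4 measured smooth muscle and pericyte markers were at least 2-fold higher and 0 lower, against 13.2% and 6.94% of all measured genes. Under DSS and LIF 0 of 3 were higher and 1 lower, against 14.2% and 31.3%.

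Of all genes measured under DSS 54.3% were above 0. Under DSS all 8 epithelial markers were below 0, with a median of −0.67. Of these, 2 were at least 2-fold lower, against 6.94% of all measured genes. T cell markers were below 0 in 6 of 7 cases, with a median of −0.79, but Cd3e and Cd4 were near 0, at −0.01 and −0.02. B cell markers were above 0 in 5 of 5 and endothelial markers in 4 of 4 measured cases, with medians of 0.91 and 0.42. Neutrophil markers were at least 2-fold higher in 4 of 5 measured cases, against 13.2% of all measured genes, and Csf3r had a difference of −0.03. The B cell gene Cd79a, the endothelial gene Cdh5 and the neutrophil gene Camp had wild-type levels of −2.27, −2.53 and −2.34. These were below the dimmest level marked in labelled Stat4-/- with DSS, −2.13, so the filter fixed their direction. The endothelial gene Plvap had levels of 10.33 and 10.54 in the labelled Stat4-/- arrays with and without LIF, and −1.07 and 9.61 in the wild-type arrays with and without LIF, so the wild-type LIF array alone was low. Pan-leukocyte markers were well above background in 5 of 5 cases on 3 arrays and in 3 of 5 in wild type with DSS and LIF, where Ptprc, which encodes the leukocyte antigen CD45, and Laptm5 were below it. The part of these cell types in the collagen differences was not tested.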

How the data were processed

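Total RNA of lamina propria lymphocytes was measured on 4 one-colour Agilent arrays, 1 per group. The deposited scanner tables hold spot intensity values, which were background-subtracted by the authors' Feature Extraction software, which the arrays' file headers give as version 11.0.1.1. The submitters' processing notes name version 9.1. The deposited value table holds log2 values made by the authors, with a normalization not given in the sources used here. It served as an alternative.

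From the scanner files, non-control spots without outlier marks were averaged per probe, and log2 processed signal minus the array's 75th percentile was taken. Of 39429 probes 27234 (69.1%) were named through RefSeq accessions (GRCm38.p6). A gene's value is that of its brightest probe, used where well above background on both arrays, and differences of at least 2-fold were counted over all measured genes. Bounds use the lowest signal marked well above background on the dim array. A group has 1 array, so no test was run and precision is limited by that number. All collagen genes well above background on any array were named, and genes of partner and marker lists by size. A result among the basement membrane partners is not reported here. The members and lists were chosen with earlier results of these data known. Alternatives were normexp (offset 50), quantile normalization, scaling to a median, other filters, the mean over probes and the value table. Scripts were tested on simulated data, with Python 3.11.15, numpy 2.4.6, pandas 2.3.3, R 4.3.3 and limma 3.58.1.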

Additional observations from a re-analysis of the deposited data

Results flagged for a closer look

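Several collagen genes had log2 differences of opposite sign between the groups compared. None of these differences was tested, since each group has 1 array, and some signs were fixed by the filter or within the software's error. The LIF difference of Col1a1 was −0.16 in labelled Stat4-/- and 1.78 in wild type, a gap of −1.94 on the log2 scale. The filter fixed the direction in wild type, as given above, and −0.16 was within the software's error of 0.21. The LIF difference of Col4a6 was 1.55 in labelled Stat4-/- and −1.15 in wild type, a gap of 2.70. The same 4 values give the genotype difference of Col4a6, which was 1.30 with DSS and LIF and −1.40 with DSS. The genotype difference of Col4a4 was −0.40 with DSS and LIF and 0.34 with DSS, a gap of −0.74. That of Col16a1 was −0.35 with DSS and LIF and 0.07 with DSS, a gap of −0.41, which is close to the software's error of a single difference. Its level in labelled Stat4-/- with DSS and LIF, −1.69, was below −1.49, the dimmest level marked in wild type with both agents. The filter thus fixed the sign of −0.35, and 0.07 was within its error of 0.35.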

How the results depend on the processing

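No paired analysis was possible because each group has 1 array, and for the same reason no replicate could be left out. Normexp (offset 50) left 2 collagens at least 2-fold higher with a median of 0.65 for genotype under DSS, 0 with 0.18 for genotype under DSS and LIF, 0 for LIF in labelled Stat4-/-, and 0 with 0.74 for LIF in wild type. Scaling to a median gave medians of 0.96 for genotype under DSS and LIF and 0.38 for LIF in wild type. Without the background filter all 43 genes entered. Of these, 25 were below the mark on all 4 arrays, where differences largely reflect the unlike percentiles subtracted. Col5a3, for example, had signals of 2.11 in labelled Stat4-/- with DSS and 1.96 in wild type with DSS. Its levels there were −4.42 and −5.97. The unfiltered counts and medians carry that limit and give no direction for these genes. The counts higher and lower without the filter were 27 and 3 (median 1.42) for genotype under DSS, 9 and 3 (−0.19, a turned sign) under DSS and LIF, 6 and 6 (0.09, a turned sign) for LIF in labelled Stat4-/-, and 21 and 7 (0.94) for LIF in wild type. Over all genes the shares were 28.5% and 9.80% for genotype under DSS, and 16.9% and 21.4% under DSS and LIF. For LIF they were 12.0% and 5.63% in labelled Stat4-/-, and 42.7% and 16.3% in wild type. With only probes well above background on all 4 arrays, 6 collagens were left by construction, with 2 higher and a median of 0.62 for genotype under DSS, 0 lower for LIF in labelled Stat4-/- and a median of 0.03 for LIF in wild type. Among all genes under this filter 9.45% were higher for genotype under DSS and 2.85% lower for LIF in labelled Stat4-/-. The mean over a gene's probes gave 0 lower for genotype under DSS, a median of 0.49 under DSS and LIF, 0 higher and 0 lower for LIF in labelled Stat4-/-, and 5 higher, 0 lower and a median of 1.10 for LIF in wild type. Among all genes under that mean 6.53% were lower for genotype under DSS. For LIF 3.69% were higher and 2.67% lower in labelled Stat4-/-, and 30.7% and 11.7% in wild type. For normexp, scaling to a median and the mean over probes the cause of the shifts was not tested. Of all measured genes under normexp, 0.0613% were higher and 8.87% lower for LIF in labelled Stat4-/-, and 8.85% and 17.1% for LIF in wild type. For genotype under DSS and LIF 5.23% were higher and 14.4% lower. Of 140 values of single genes under alternatives 21 moved by more than the software's error. For genotype under DSS, normexp moved Col1a1, Col1a2, Col3a1, Col6a5, Col11a2, Col18a1 and Col26a1, and the other alternatives moved no single gene. Of 88 counts and medians under alternatives 30 moved and 2 turned sign.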
